A study of Mus musculus with 15 samples.

Results

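Deletion of Rbpj in regulatory T cells (Treg) was examined by comparing 4 RBPJdel arrays with 4 control arrays, 8 of the 15 arrays of the study, chosen by their genotype titles. All 19752 genes that a feature of the array names singly were tested in both groups. RBPJdel mice carried floxed Rbpj alleles (RBPJfl/fl, with RBPJ∆/∆ in the titles) together with Foxp3EGFPcre, and control mice carried Foxp3EGFPcre alone. Both groups therefore express green fluorescent protein and Cre under Foxp3 regulatory sequences, so that Cre acts in Foxp3-expressing cells. The deletion is also compared in another background: 3 N1c_RBPJdel arrays carry RBPJfl/fl, R26N1c/N1c and Foxp3EGFPcre, and 4 N1c arrays carry R26N1c/N1c and Foxp3EGFPcre, where N1c is an active intracellular Notch1 that Cre releases from the Rosa26 locus. Cells came from spleens of males aged 6 weeks. They were sorted on CD3, TCRbeta, CD4 and GFP with CD8, B220, CD11b, CD11c, Gr1 and DAPI gated out. Each array holds RNA of 40000 to 50000 cells from several mice, so that p-values here measure how pools of mice vary from array to array, and their number limits the precision. A MoFlo sorted RBPJdel, control and N1c cells, and a FACSAria sorted those of N1c_RBPJdel.

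RBPJ is the DNA-binding protein to which the intracellular part of a cleaved Notch receptor attaches, together with a Mastermind coactivator, to turn on target genes. Without that Notch fragment, RBPJ sits with corepressors and can hold genes off. In T cells, Notch signals act on early thymic development and on helper cell differentiation, and Treg keep other lymphocytes in check through Foxp3, surface inhibitory receptors and cytokine capture.

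Values are deposited array intensities on a linear scale, and each change is a difference of group means of log2 intensity, RBPJdel minus control, with its standard error (SE) from limma. Adjusted p-values are by Benjamini-Hochberg over the 19752 genes, and a gene was called at an adjusted p below 0.05. Median intensities of the 8 arrays lay between 108.4 and 117.2, and correlations between them between 0.975 and 0.996. Arrays numbered 4 and 5 stood apart from those with lower numbers within both groups. Fos, an immediate early transcription factor gene, read 184, 106, 97.6 and 738 in RBPJdel arrays 1 to 4, against 88.4, 89.1, 1264 and 740.2 in control arrays 2 to 5. Fabp2, the fatty acid binding protein of the gut epithelium, read 23.3, 29.4, 23.02 and 84.3 in RBPJdel and 24.998, 28.4, 886 and 172 in control. Both genes were chosen after their values were seen, and both were high on RBPJdel 4, control 4 and control 5. The sources used here do not say what the numbers stand for, and the part of that split in a result was not tested beyond the values given. A fit with a term for the arrays numbered 4 and 5, chosen after seeing the data, therefore stands beside the results it touches. It called 26 genes, among them all 22 called without the term.

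Rbpj itself fell. It read 259.6, 294, 293 and 225 in the 4 RBPJdel arrays, against 571, 472, 470.3 and 483 in the 4 control arrays. No RBPJdel array reached the lowest control array, and the level was 1.87-fold lower in RBPJdel (log2 change -0.90 ± 0.12 SE, adjusted p = 0.00213). The labels do not give the exons between the loxP sites, and the feature reads probes along the transcript, so the remaining intensity does not measure how many cells kept the gene. In bulk RNA, fewer cells with a transcript and less RNA per cell cannot be told apart. A dimmer feature also assigned to Rbpj was near the same level in both groups (58.6 in RBPJdel, 55.2 in control), and with both features averaged the change was -0.41 with an adjusted p of 0.32. Within the arrays numbered 1 to 3 the change was -0.88. Within those numbered 4 and 5, where RBPJdel has array 4 alone, it was -1.08. With the arrays numbered 1 to 3 alone the adjusted p was 0.118.

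The sorted cells carried the transcripts of Treg in both groups. Foxp3, the transcription factor that defines the lineage, read 6248, 5456, 5527 and 4294 in RBPJdel and 4761, 5331, 5012 and 4834 in control. These ranges overlap, with log2 change 0.10 ± 0.12 SE, adjusted p = 0.917. Il2ra, the high-affinity interleukin 2 receptor chain, lay between 5326 and 7153 in RBPJdel and between 5869 and 7064 in control. Of the 7 Treg markers none was called. Ctla4, an inhibitory receptor, read 1249.8, 1265, 1320.1 and 1439 in RBPJdel and 1719.7, 1589, 2042 and 2002 in control, lower on each RBPJdel array, with log2 change -0.47 ± 0.16 SE, adjusted p = 0.53. Marker lists of other cells (11 lists with the Treg markers) held no called member. Summed intensities over a list ran from 928 to 1004 in RBPJdel and 744 to 994 in control for 5 CD8 T markers, from 744 to 873 in RBPJdel and 694 to 747 in control for 8 B cell markers, and from 335 to 391 in RBPJdel and 326 to 544 in control for 6 myeloid markers. The B cell receptor chains differed in level, with Cd79a at 28.8 to 39.3 in RBPJdel and 29.5 to 36.3 in control, and Cd79b at 482, 497, 417 and 435 in RBPJdel and 402, 415, 371 and 322 in control, higher on each RBPJdel array and not called (log2 change 0.28 ± 0.16 SE, adjusted p = 0.806). Ncr1, a receptor of natural killer cells, was dim at 21.4 to 29.4 in RBPJdel and 17.1 to 22.05 in control. Cd8a read 147, 184, 141 and 94.998 in RBPJdel and 115, 115, 86.9 and 106 in control and was not called (log2 change 0.39 ± 0.17 SE, adjusted p = 0.693). Its partner chain Cd8b1 read 654, 538, 604 and 549.6 in RBPJdel and 500.5, 488, 455 and 621 in control, with overlap (log2 change 0.19 ± 0.13 SE, adjusted p = 0.845). Notch1 itself read 1302, 1613, 1217 and 1211 in RBPJdel and 1443, 1367, 1374 and 836 in control, with overlapping ranges and log2 change 0.11 ± 0.18 SE, adjusted p = 0.946. The sign of that change turns with several settings.

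Few genes differed between the groups. At the threshold 22 genes were called, which is 0.111% of the genes tested, with 7 higher (0.0354%) and 15 lower (0.0759%) in RBPJdel. Rbpj is 1 of the 15. All 22 had RBPJdel arrays on one side of all control arrays, and over all genes 5.89% did so (2.81% higher, 3.08% lower). An unadjusted p below 0.05 was reached by 520 genes higher (2.63%) and 811 lower (4.11%), 6.74% of all. Of the 24 genes whose mean moved by at least 1 log2 unit, 12 were called, 4 higher and 8 lower. The smallest called change was 0.54 log2 units in size, SEs of the called genes ran from 0.08 to 0.25, and the median change of all genes was 0.03. With limma's array weights the calls came to 58 higher and 131 lower, and with the arrays numbered 1 to 3 alone, 3 RBPJdel and 2 control, to 1 higher and 4 lower (Lgmn, and Dtx1, Slc35d1, Penk and Abcb1a). Without RBPJdel 4 the higher calls were 4 and the lower 13.

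**Figure D1:**
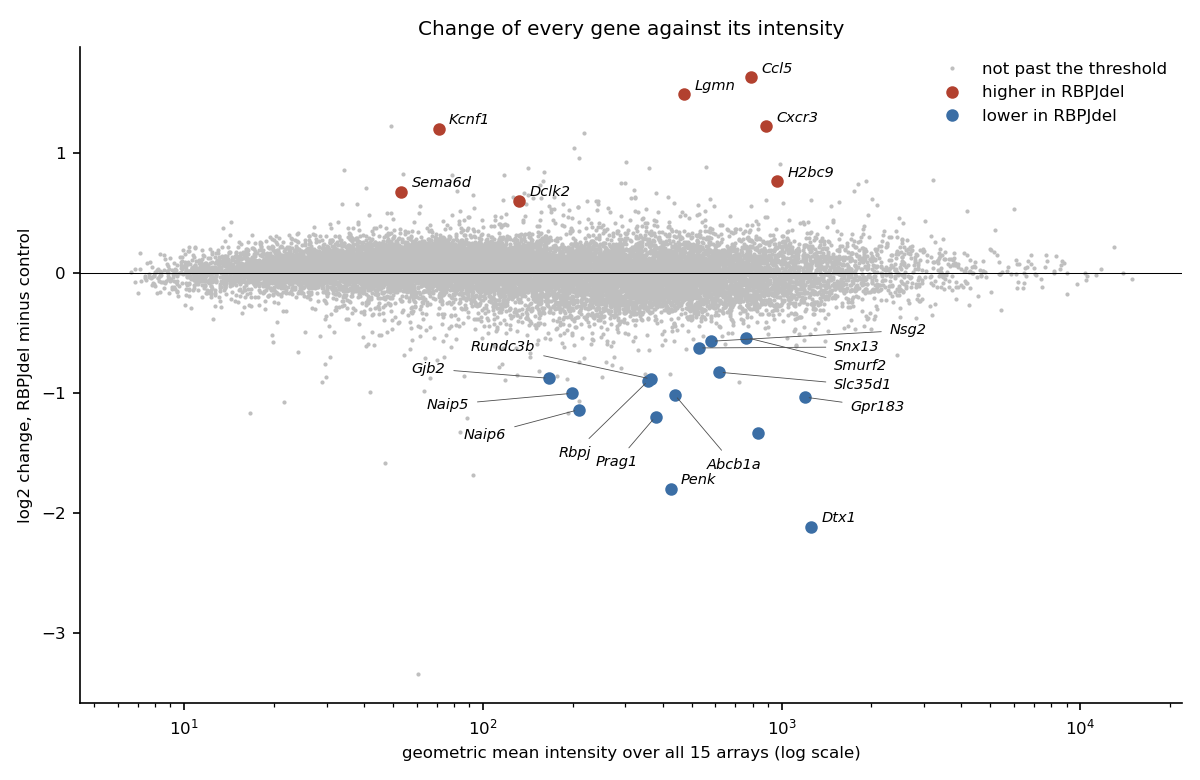
Log2 change of every gene (RBPJdel minus control, vertical axis) against its geometric mean intensity over the 15 arrays (horizontal axis, log scale), with the 7 genes called higher in red and the 15 called lower in blue. The called genes lie at least 0.54 log2 units from 0 and run across the intensity scale, and 1 called predicted gene has no label.

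Of the genes that Notch is known to switch on, Dtx1 fell. Deltex 1 is a ubiquitin ligase of the Notch pathway and a classic target gene of it. Its intensity was 367, 457, 338 and 359 in RBPJdel and 2001, 1475, 1968 and 1242 in control, so that the highest RBPJdel array was far below the lowest control array. That is a 4.34-fold lower level (log2 change -2.12 ± 0.21 SE, adjusted p = 0.000116). The list of Notch target genes had 16 measured members, of which 1 was called lower (Dtx1) and 0 higher. Its median change was 0.06, beside 0.03 over all genes, and the 15 members that were not called ran from -0.08 to 0.24. Hes1 and Nrarp, named here because they are the best known targets, changed by -0.01 ± 0.24 and 0.07 ± 0.22 (SE), with adjusted p-values of 0.997 and 0.981. Heyl, a transcriptional repressor of the same family as Hes1, read 99.8, 122, 95.95 and 112 in RBPJdel and 82.6, 98.6, 102 and 91.7 in control, with overlapping ranges (log2 change 0.20 ± 0.11 SE, adjusted p = 0.779). Dtx3l, a ubiquitin ligase related to Deltex 1, was higher on each RBPJdel array (1533, 1510.4, 1453 and 1532) than on any control array (1443, 1376, 1152 and 1159.6) and was not called (log2 change 0.24 ± 0.09 SE, adjusted p = 0.628).

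Rasal1, which encodes a GTPase activating protein for Ras, is the next gene beside Dtx1 on chromosome 5. It read 125, 164, 152 and 153 in RBPJdel and 282, 211, 298 and 211 in control. Each RBPJdel array was below each control array, and the change missed the threshold (log2 change -0.74 ± 0.15 SE, adjusted p = 0.0816). Chromosome 5 held 4 of the 22 called genes (18.2%, beside 5.73% of all genes tested), namely Dtx1, Rbpj, Abcb1a and Rundc3b. Rbpj is the deleted gene itself. The spans of Abcb1a and Rundc3b overlap, so the calls of Abcb1a and Rundc3b may not be separate results.

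Other parts of the pathway did not pass the test. Of 24 measured Notch receptor, ligand and processing genes, 0 were called, with a median change of 0.00 and a range from -0.32 to 0.26. Fbxw7, the ubiquitin ligase subunit that marks intracellular Notch for degradation, was lowest of these and below control on each RBPJdel array (125, 129, 139 and 119 in RBPJdel, 146, 148, 168 and 177 in control, log2 change -0.32 ± 0.10 SE, adjusted p = 0.499). Of 19 measured RBPJ cofactor genes, corepressors and coactivators together, 0 were called, from -0.25 to 0.18 with a median of 0.02. Kdm5a, a histone demethylase that joins RBPJ in repression, read 528, 604, 604 and 555 in RBPJdel and 679, 604, 716 and 668 in control, with overlap (log2 change -0.22 ± 0.11 SE, adjusted p = 0.751).

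Promoter windows were set beside the called genes. The windows printed here run from 250 bases before to 50 bases after the annotated start, from RefSeq on GRCm38.p6, written 5′ to 3′ on the gene's strand. Capitals mark the core of the RBPJ binding motif, TGGGAA, or its reverse complement TTCCCA, searched on both strands. Dtx1 is shown as the called gene that fell most, Gpr183 and Rundc3b as called lower genes with the core, Naip5 and Naip6 as neighbours that fell together, and Cxcr3 as a gene that rose.
Dtx1 (chr5:120711620-120711919, minus strand): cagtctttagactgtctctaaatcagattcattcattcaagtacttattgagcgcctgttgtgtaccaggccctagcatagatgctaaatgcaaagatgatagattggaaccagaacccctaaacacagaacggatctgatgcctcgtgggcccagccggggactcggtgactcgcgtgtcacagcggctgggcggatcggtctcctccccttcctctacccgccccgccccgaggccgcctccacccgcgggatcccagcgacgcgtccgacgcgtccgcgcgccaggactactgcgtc
Gpr183 (chr14:121965144-121965443, minus strand): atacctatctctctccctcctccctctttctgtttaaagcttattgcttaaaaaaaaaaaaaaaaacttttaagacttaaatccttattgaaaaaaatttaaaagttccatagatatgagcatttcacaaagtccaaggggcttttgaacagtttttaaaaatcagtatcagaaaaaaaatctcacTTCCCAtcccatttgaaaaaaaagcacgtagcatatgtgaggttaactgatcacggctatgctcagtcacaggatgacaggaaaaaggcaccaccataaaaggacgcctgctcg
Rundc3b (chr5:8622903-8623202, minus strand): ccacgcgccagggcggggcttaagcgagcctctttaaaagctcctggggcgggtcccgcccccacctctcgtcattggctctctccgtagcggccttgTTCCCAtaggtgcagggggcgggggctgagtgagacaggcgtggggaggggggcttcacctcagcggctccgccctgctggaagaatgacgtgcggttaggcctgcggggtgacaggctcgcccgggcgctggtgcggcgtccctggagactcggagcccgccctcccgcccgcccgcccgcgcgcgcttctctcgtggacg
Naip5 (chr13:100247287-100247586, minus strand): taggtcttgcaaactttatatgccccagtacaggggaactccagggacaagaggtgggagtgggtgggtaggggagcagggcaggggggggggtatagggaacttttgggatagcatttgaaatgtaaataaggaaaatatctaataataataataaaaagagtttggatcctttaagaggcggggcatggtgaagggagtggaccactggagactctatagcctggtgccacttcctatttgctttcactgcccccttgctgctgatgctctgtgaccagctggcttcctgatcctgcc
Naip6 (chr13:100316567-100316866, minus strand): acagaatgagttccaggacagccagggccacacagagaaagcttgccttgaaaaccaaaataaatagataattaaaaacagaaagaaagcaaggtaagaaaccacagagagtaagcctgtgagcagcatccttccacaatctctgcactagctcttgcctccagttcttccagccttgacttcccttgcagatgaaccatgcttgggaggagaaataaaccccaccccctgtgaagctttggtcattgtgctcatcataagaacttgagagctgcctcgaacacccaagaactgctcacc
Cxcr3 (chrX:101734098-101734397, minus strand): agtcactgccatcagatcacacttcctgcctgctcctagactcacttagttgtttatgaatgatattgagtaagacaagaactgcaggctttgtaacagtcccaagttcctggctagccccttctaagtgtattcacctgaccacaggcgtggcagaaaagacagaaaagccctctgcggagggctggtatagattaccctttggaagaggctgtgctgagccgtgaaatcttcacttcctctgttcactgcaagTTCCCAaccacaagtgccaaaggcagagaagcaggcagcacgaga
The core begins 64 bases before the start in Gpr183 and 152 before it in Rundc3b, and 5 bases after it in Cxcr3. The Dtx1, Naip5 and Naip6 windows hold no match, which says only that these letters are not in these 300 bases. Of 14 windows of genes called lower 4 held the core (28.6%), and of 8 windows of genes called higher 2 did (25%). Both windows of Rbpj, the deleted gene, overlap and are among those 4. Counted by gene, 3 of 12 lower genes (25%) and 2 of 6 higher genes (33.3%) held it, beside 27.06% of tested genes. By window the share was 25.6% of all 32841 RefSeq windows and 24.02% of those of tested genes, so that the called genes lay near the background. The longer form GTGGGAA was found in 0 of the 22 windows of called genes and in 6.38% of all windows. Windows were given for 18 of the 22 called genes, and a match is a description of letters and not a binding site.

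The largest fall among the called genes after Dtx1 was that of Penk, the precursor of the enkephalin opioid peptides and a gene that Treg are known to express. Penk read 188, 255, 237 and 212 in RBPJdel and 887, 852, 605 and 779 in control. The arrays did not overlap, and the level was 3.48-fold lower in RBPJdel (log2 change -1.80 ± 0.23 SE, adjusted p = 0.0014). Among the 17 measured neuropeptide and receptor genes it was the 1 called, and the other 16 ran from -0.08 to 0.21. The same gene was the 1 called of 29 measured Treg signature genes, whose median change was -0.03.

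**Figure D2:**
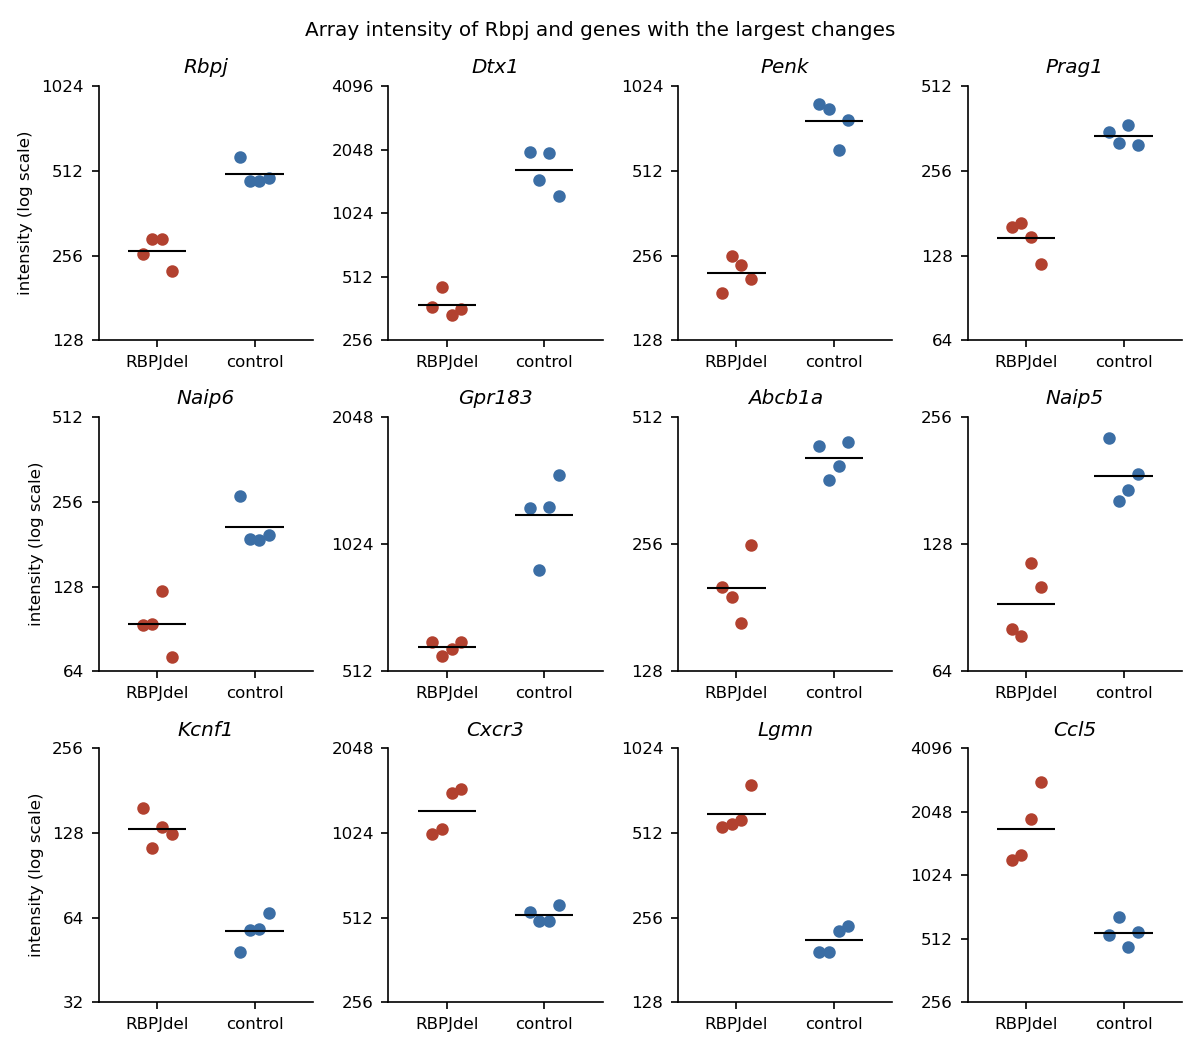
Intensity on each array (vertical axis, log scale) of Rbpj and of the 11 named genes past the threshold with a change of at least 1 log2 unit, RBPJdel in red on the left and control in blue on the right of each panel, with the line at the geometric mean. In each of the 12 panels the 4 RBPJdel arrays and the 4 control arrays do not overlap.

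Receptors for chemical guidance cues changed in both directions. Gpr183, an oxysterol receptor that positions lymphocytes in spleen and lymph node, read 601, 558, 577 and 602 in RBPJdel and 1248, 889, 1251 and 1491 in control. RBPJdel arrays were close together and all below control, at a 2.05-fold lower level (log2 change -1.04 ± 0.14 SE, adjusted p = 0.00213). Cxcr3, the receptor of interferon-induced chemokines on type 1 effector cells and on T-bet-positive Treg, rose. It read 1011, 1056, 1417 and 1463 in RBPJdel and 534, 496, 498 and 567 in control, 2.33-fold higher in RBPJdel with no overlap (log2 change 1.22 ± 0.16 SE, adjusted p = 0.00172). Of the 24 measured chemokine and homing receptor genes these 2 were called, 1 in each direction, and the other 22 ran from -0.43 to 0.30 around a list median of 0.08. Gpr15, a receptor that guides T cells to the large intestine, was at the low end with each RBPJdel array (86.05, 93.97, 86.7 and 106) below each control array (126, 128, 126 and 122), not called (log2 change -0.43 ± 0.13 SE, adjusted p = 0.47). Of 4 measured markers of conventional CD4 T cells none was called, and Ccr7, the receptor for entry into lymph nodes, read 2922 to 3333 in RBPJdel and 2852 to 3412 in control.

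Ccl5, a chemokine of effector and memory T cells, rose most of all called genes. Its intensities were 1211, 1272, 1892 and 2828 in RBPJdel and 533, 650.2, 469 and 551 in control. RBPJdel arrays 3 and 4 were highest, the lowest RBPJdel array was still above the highest control array, and the level was 3.10-fold higher in RBPJdel (log2 change 1.63 ± 0.24 SE, adjusted p = 0.00459). The rise was 1.28 within the arrays numbered 1 to 3 and 2.48 within those numbered 4 and 5, where RBPJdel has array 4 alone, its highest. It was the 1 called of 23 measured chemokines, the other 22 lying between -0.19 and 0.18.

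Ccl5 and Cxcr3 were the 2 called of 16 measured Th1 genes, both higher, with a list median of 0.17 and the other 14 between -0.28 and 0.60. Tbx21, which encodes T-bet, the transcription factor of the Th1 programme, read 227, 286, 263 and 290.2 in RBPJdel and 202, 184, 132 and 192 in control. Each RBPJdel array was above each control array, while the test did not pass (log2 change 0.60 ± 0.18 SE, adjusted p = 0.47). Il18r1, the interleukin 18 receptor chain, read 678, 1064, 1226 and 874 in RBPJdel and 718, 656, 556 and 629 in control, with overlap (log2 change 0.56 ± 0.16 SE, adjusted p = 0.474). The geometric mean over the 16 genes was 252, 267, 285 and 312 in RBPJdel and 229, 223, 220.4 and 249 in control. It was higher on all RBPJdel arrays, but it includes the called Ccl5 and Cxcr3, and the separation depends on them. Arrays did not overlap on the higher side for 4 members, these called genes included, against 2.81% of all genes. On the lower side they did not overlap for 1 member, Stat4 (log2 change -0.28 ± 0.10 SE, adjusted p = 0.605), against 3.08% of all genes. In value 10 members were above 0 and 6 below. The CD8 T marker sums given above overlapped between the groups, and the part of CD8 T cells in the Th1 values was not tested. Th2 genes (13 measured) and Th17 and Tfh genes (15 measured) had 0 called, with medians of 0.00 and -0.04.

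Lgmn had the smallest p of all genes. It encodes legumain, a lysosomal protease that cuts after asparagine and takes part in antigen processing. Its intensity was 539, 549, 567 and 754 in RBPJdel and 193, 194, 230.4 and 238 in control. Array RBPJdel 4 was the highest, all RBPJdel arrays were above all control arrays, and the level was 2.80-fold higher in RBPJdel (log2 change 1.49 ± 0.13 SE, adjusted p = 3.65e-05). It was the 1 called of 17 measured lysosomal proteases and their relatives, with a list median of 0.11 and the others from -0.42 to 0.58. At the upper end of those, Ctsw, a cathepsin of cytotoxic cells, read 788, 665, 571 and 763 in RBPJdel and 471, 504, 454 and 424 in control, without overlap and not called (log2 change 0.58 ± 0.15 SE, adjusted p = 0.32). Ctsl, cathepsin L, went the other way in value, at 83.4, 93.3, 96.4 and 106 in RBPJdel and 110.005, 108, 149.6 and 134 in control (log2 change -0.39 ± 0.15 SE, adjusted p = 0.613).

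Antigen presentation genes of MHC class II gave 0 calls among 9 measured, with a median of 0.18. Cd74, the invariant chain that legumain and cathepsins help to process, read 464, 401, 588 and 573 in RBPJdel and 298, 300.2, 286 and 384 in control, each RBPJdel array above each control array and not called (log2 change 0.67 ± 0.23 SE, adjusted p = 0.571). The geometric mean of the 9 genes was 162, 178, 176 and 191 in RBPJdel and 145, 135, 152 and 167 in control, and the highest control array exceeded the lowest RBPJdel array. B cells carry the same transcripts. The B cell marker sums given above overlapped between the groups with higher values in RBPJdel. Cd79b, by far the brightest of these markers, was higher on each RBPJdel array. Cd22 went the other way in value (log2 change -0.38 ± 0.16 SE, adjusted p = 0.667), and the geometric mean over the 8 markers was 60.3 in RBPJdel and 59.6 in control. The part of B cells was not tested.

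Naip5 and Naip6, cytosolic sensors of bacterial flagellin that assemble the Nlrc4 inflammasome, fell together. Naip5 read 80.6, 77.8, 116 and 101 in RBPJdel and 228, 162, 172 and 188 in control, 2.01-fold lower in RBPJdel (log2 change -1.01 ± 0.13 SE, adjusted p = 0.00172). Naip6 read 93.6, 94.04, 123 and 72.2 in RBPJdel and 269, 189, 187 and 195 in control, 2.21-fold lower in RBPJdel (log2 change -1.14 ± 0.16 SE, adjusted p = 0.00414). Neither gene had overlapping arrays. They are neighbours on chromosome 13 and close relatives, and probes of one may read the other, so the 2 calls may not be separate measurements. Naip2, the next relative in the same cluster, read 279.7, 230.1, 326 and 236 in RBPJdel and 387, 301, 305 and 334 in control, with overlap (log2 change -0.31 ± 0.13 SE, adjusted p = 0.647). These were the 2 called of 16 measured NAIP and inflammasome genes, and Nlrc4 itself changed by -0.18 ± 0.11 (adjusted p = 0.821).

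Abcb1a encodes a P-glycoprotein efflux pump. It read 203, 192, 167 and 255 in RBPJdel and 438, 362, 391 and 448 in control, with RBPJdel 4 nearest to control and no overlap (2.02-fold lower in RBPJdel, log2 change -1.02 ± 0.13 SE, adjusted p = 0.00172). Rundc3b, a gene for a RUN domain protein whose span overlaps that of Abcb1a in the annotation, read 171, 172, 185 and 242 in RBPJdel and 342, 341, 363 and 362 in control (1.85-fold lower in RBPJdel, log2 change -0.89 ± 0.14 SE, adjusted p = 0.0105). Both fell with RBPJdel 4 as the highest RBPJdel array, and Rundc3b was not called without RBPJdel 1, 2 or 3 (adjusted p 0.0539, 0.0649 and 0.054). Because the spans overlap, their features may not be fully separate either. Abcb1b, the neighbouring pump gene, read 88.96, 97.5, 102 and 107 in RBPJdel and 129, 99.3, 115 and 138 in control, with overlap (log2 change -0.28 ± 0.12 SE, adjusted p = 0.671). Of 14 measured drug efflux pumps, Abcb1a was the 1 called.

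Other lower calls were of genes with various roles. Slc35d1, a nucleotide sugar transporter of the endoplasmic reticulum, read 383, 360.1, 397 and 411 in RBPJdel and 622, 733, 703 and 701 in control. Its arrays were tightly grouped on either side, 1.78-fold lower in RBPJdel (log2 change -0.83 ± 0.09 SE, adjusted p = 0.000398). Prag1, a pseudokinase that takes part in cell shape and motility signalling, read 161, 167, 149 and 119.8 in RBPJdel and 353, 321, 373 and 316 in control. No array overlapped, at a 2.30-fold lower level (log2 change -1.20 ± 0.18 SE, adjusted p = 0.00459). Smurf2, a ubiquitin ligase that acts on SMAD proteins of the TGF-beta pathway, read 618, 623, 679.9 and 656 in RBPJdel and 917, 958, 979 and 899 in control, lower by a small and even step (log2 change -0.54 ± 0.08 SE, adjusted p = 0.00605), which was not called with the features of a gene averaged (adjusted p = 0.769). Gjb2, the gap junction protein connexin 26, read 69.2, 82.1, 73.4 and 65.1 in RBPJdel and 144, 133, 115 and 142 in control (log2 change -0.88 ± 0.15 SE, adjusted p = 0.014). All RBPJdel arrays were below all control arrays here as well, and Gjb2 was not called without RBPJdel 1, 3 or 4 or control 2 or 5 (adjusted p 0.054 to 0.0725).

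Snx13, a sorting nexin of endosomes, and Nsg2, an endosomal protein known from neurons, were also called lower. Snx13 read 435, 346, 439 and 381 in RBPJdel and 581, 613, 592 and 681 in control (log2 change -0.63 ± 0.11 SE, adjusted p = 0.0187). Nsg2 read 393, 404, 422 and 491 in RBPJdel and 609.6, 621, 597 and 712 in control (log2 change -0.57 ± 0.10 SE, adjusted p = 0.036). Neither overlapped between groups. Snx13 was not called without RBPJdel 2 or 4 or control 3, 4 or 5 (adjusted p 0.0531 to 0.0947) or with quantile normalization (adjusted p 0.0621), and Nsg2 was not called without any 1 of the 8 arrays other than RBPJdel 4 (adjusted p 0.078 to 0.159), with the 8 arrays alone (adjusted p 0.0621) or with quantile normalization (adjusted p 0.105).

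Higher calls other than Lgmn, Ccl5 and Cxcr3 were of dimmer genes, apart from a histone. Kcnf1, a silent subunit that modifies voltage-gated potassium channels, read 157, 113, 134 and 127 in RBPJdel and 48.2, 57.9, 58.3 and 66.6 in control. Its arrays were well apart, 2.30-fold higher in RBPJdel (log2 change 1.20 ± 0.14 SE, adjusted p = 0.00107), and it was the 1 called of 22 measured potassium channel genes. Sema6d, a transmembrane semaphorin, read 58.5, 73.8, 69.7 and 79.1 in RBPJdel and 40.99, 41.2, 46.7 and 46.8 in control (log2 change 0.67 ± 0.11 SE, adjusted p = 0.0105). Dclk2, a doublecortin-like kinase, read 166, 168, 177 and 195 in RBPJdel and 127, 115, 125 and 100.1 in control (log2 change 0.60 ± 0.10 SE, adjusted p = 0.00983). Neither gene had an RBPJdel array as low as a control array. Sema6d was not called without RBPJdel 2 or 4 or control 2 or 3 (adjusted p 0.0519 to 0.0639), and Dclk2 was not called without RBPJdel 4 (adjusted p 0.0529) or with the 8 arrays alone (adjusted p 0.0544).

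Replication-dependent histone genes had the highest median change of the 27 gene lists. H2bc9 was the 1 called of 17 measured, at 1063, 1162, 1419 and 1285 in RBPJdel and 731, 843, 673 and 654 in control (log2 change 0.76 ± 0.14 SE, adjusted p = 0.0282). It was not called without RBPJdel 2, 3 or 4 or control 2, 4 or 5 (adjusted p 0.0775 to 0.142). H4c14, of the same class but outside that list, just missed the threshold at 1927, 1835, 2388 and 2858 in RBPJdel and 1452, 1512, 1139 and 1233 in control (log2 change 0.74 ± 0.14 SE, adjusted p = 0.0528). H2bc14 read 1091, 985, 1400.1 and 1345 in RBPJdel and 726, 804, 491 and 573 in control (log2 change 0.91 ± 0.19 SE, adjusted p = 0.124). All 17 measured members had a change above 0, with a median of 0.33, and 4 had arrays that did not overlap on the higher side, against 2.81% of all genes. The geometric mean over the list was 184, 174, 217 and 239 in RBPJdel and 152, 158, 148 and 140.3 in control, above control on each RBPJdel array. The median change was 0.27 within the arrays numbered 1 to 3 and 0.83 within those numbered 4 and 5, where RBPJdel has array 4 alone. Members of these families are near copies of each other, so their features may share signal and the members are not independent.

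Cell cycle genes gave 0 calls among 38 measured. Their median change was 0.27, 36 of 38 were above 0, and 10 had an unadjusted p below 0.05 on the higher side, against 2.63% of all genes. The geometric mean over the list was 213, 237, 222 and 139.7 in RBPJdel and 185, 188, 129 and 129.8 in control. RBPJdel 4, control 4 and control 5 were low, which is 1 array of 4 in RBPJdel and 2 of 4 in control, and within each set of numbers the RBPJdel arrays were above the control arrays. Within the arrays numbered 1 to 3 the median change was 0.17, within those numbered 4 and 5 it was 0.10, and with a term for the numbers it was 0.14. Ube2c, a mitotic ubiquitin-conjugating enzyme, read 196, 224, 207 and 98.4 in RBPJdel and 123, 134, 102 and 71.1 in control (log2 change 0.73 ± 0.24 SE, adjusted p = 0.529).

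Immediate early and heat shock genes ran the other way across the same arrays. Their geometric mean was 327, 281, 279.6 and 660.3 in RBPJdel and 278, 311, 756 and 517 in control, with RBPJdel 4, control 4 and control 5 high. The median change over 17 measured members was -0.22, with 0 called. It was -0.01 within the arrays numbered 1 to 3, -0.05 within those numbered 4 and 5, and 0.03 with a term for the numbers. Nr4a1, an orphan nuclear receptor gene induced by T cell receptor signals, read 944, 1051, 967 and 1095 in RBPJdel and 1202, 1316, 1386 and 1329 in control, lower on each RBPJdel array and not called (log2 change -0.37 ± 0.17 SE, adjusted p = 0.733). It was also highest on RBPJdel 4 within RBPJdel and on control 4 and 5 within control, by smaller steps than the list as a whole.

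**Figure D3:**
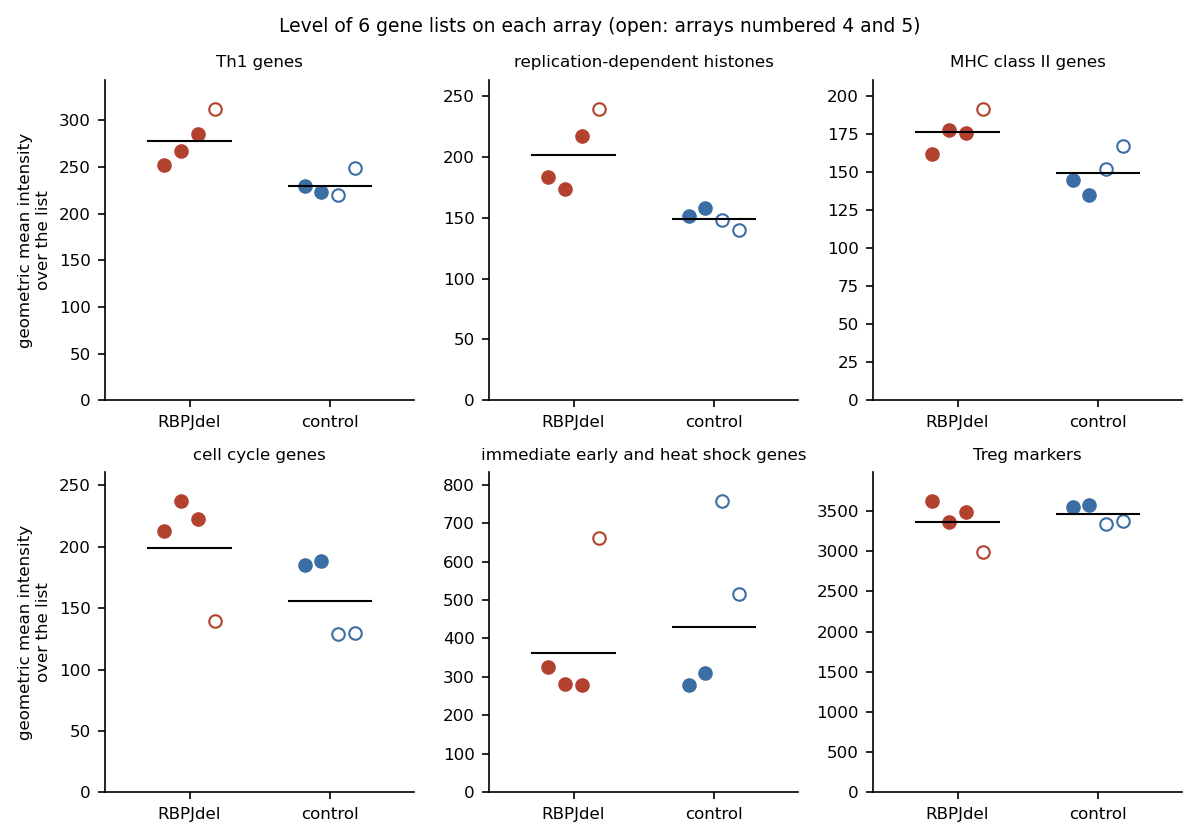
Geometric mean intensity over the measured members of 6 lists (vertical axes, linear from 0) on each array, RBPJdel in red on the left and control in blue on the right, with open circles for the arrays numbered 4 and 5 and lines at the group means. Histone and Th1 levels are higher on all RBPJdel arrays than on any control array. The Th1 level includes the called genes Ccl5 and Cxcr3, and its separation depends on them. RBPJdel 4, control 4 and control 5 lie apart from the rest in cell cycle and immediate early levels, the cell cycle level still being higher on RBPJdel arrays within each set of numbers.

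Treg function genes showed few changes. Of 20 measured effector Treg genes 1 was called (Cxcr3, higher), with a median of 0.14 that was -0.04 within the arrays numbered 1 to 3. Tigit, an inhibitory receptor of activated Treg, read 1597, 1651, 2099 and 1662 in RBPJdel and 1259, 1225, 1024 and 1251 in control, higher on each RBPJdel array and not called (log2 change 0.55 ± 0.13 SE, adjusted p = 0.235). Fgl2, a secreted suppressive protein of Treg, read 246, 230.2, 313 and 299.7 in RBPJdel and 186, 164, 135 and 125 in control, also higher on each RBPJdel array and not called (log2 change 0.84 ± 0.18 SE, adjusted p = 0.155). In the effector list 13 members were above 0 and 7 below. Il10 and Maf of that list were lower on each RBPJdel array and not called (log2 changes -0.79 ± 0.39 and -0.30 ± 0.15 SE, adjusted p = 0.75 for each). Of 14 measured genes of resting T cells 0 were called, 12 were below 0, and Satb1, a chromatin organiser, read 2065, 2036, 1801 and 1918 in RBPJdel and 2509.8, 2743, 3062 and 2551 in control with no overlap (log2 change -0.47 ± 0.10 SE, adjusted p = 0.159).

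Metabolic and signalling lists had no member past the threshold. Of 21 measured mTOR and PI3K-Akt genes 17 were below 0, with a median of -0.10, and Pik3cb, a catalytic subunit of PI3 kinase, read 177, 188, 179 and 163 in RBPJdel and 216, 221, 270.1 and 264 in control without overlap (log2 change -0.45 ± 0.10 SE, adjusted p = 0.167). Glycolysis genes (15 measured) had a median of 0.12. Tpi1, triosephosphate isomerase, read 483, 546, 545 and 475 in RBPJdel and 435, 411, 394 and 413 in control, each RBPJdel array above each control array (log2 change 0.31 ± 0.10 SE, adjusted p = 0.53). Interferon response genes (23 measured) had a median of 0.11. Ube2l6, the conjugating enzyme of the interferon-induced modifier ISG15, is not on that list and read 548, 387, 412 and 446 in RBPJdel and 295, 296, 220.3 and 259 in control with no overlap (log2 change 0.74 ± 0.15 SE, adjusted p = 0.114). Ribosomal protein genes (16 measured), T cell receptor signalling genes (23) and apoptosis genes (17) lay around 0, with medians of 0.04, -0.02 and 0.04, and cytotoxic granule genes (16) had a median of 0.01. In all, 15 of the 27 gene lists had no called member.

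**Figure D4:**
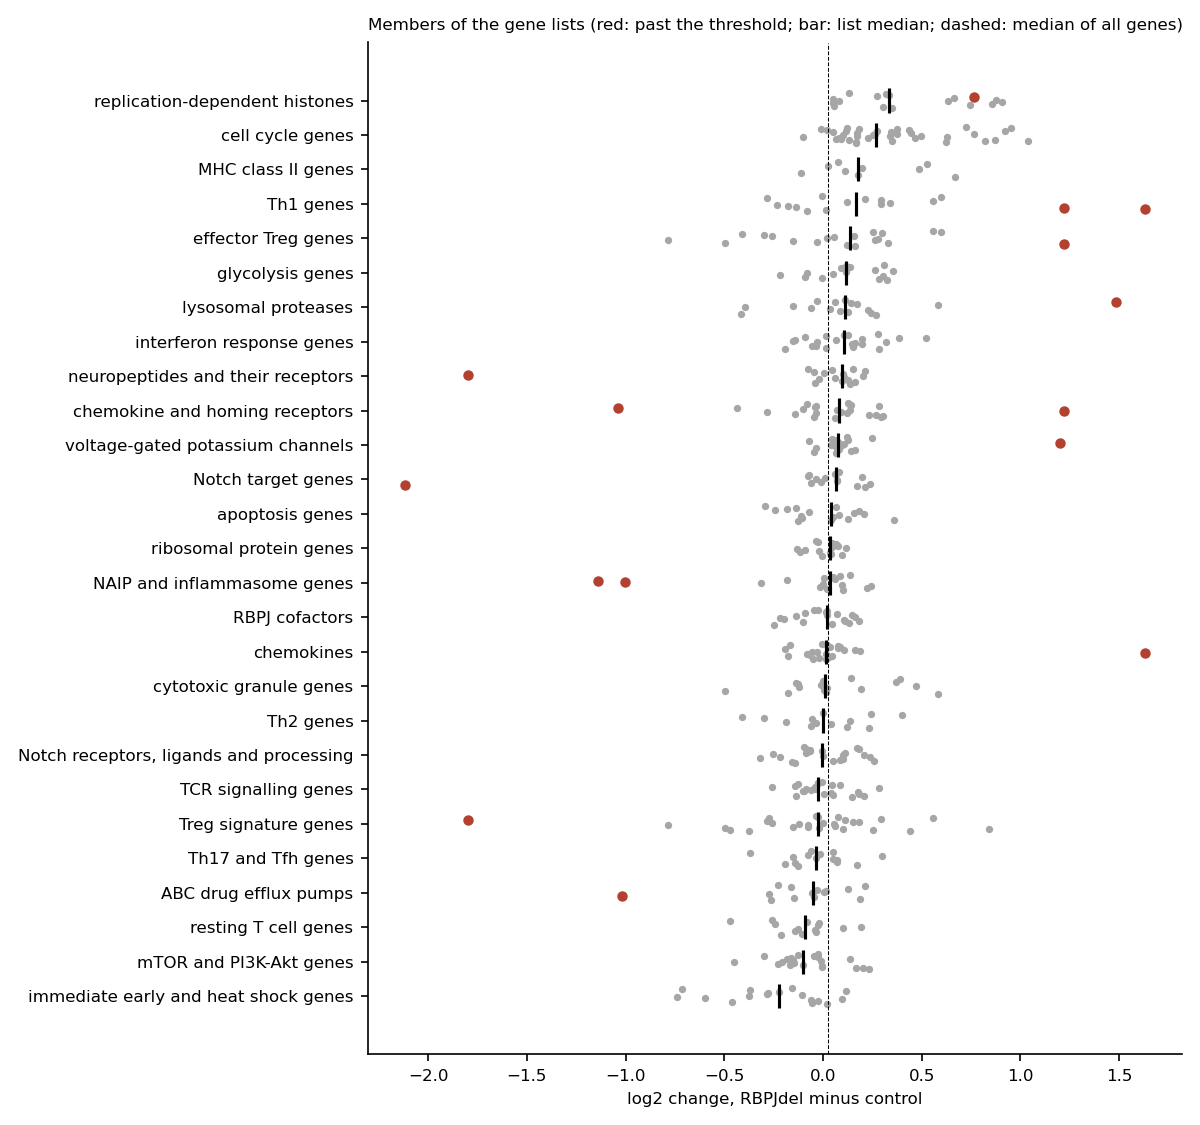
Log2 change (RBPJdel minus control, horizontal axis) of each measured member of the 27 gene lists, 1 list per line ordered by its median, with called members in red, the list median as a bar and the median of all genes (0.03) dashed. Most lists sit near 0 with at most 2 called members away from the rest, and the histone and cell cycle lists have the highest medians, 0.33 and 0.27.

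A further 20 genes lay just outside the threshold, with adjusted p-values from 0.05 to 0.2, 7 higher and 13 lower. Nearest on the lower side was Hgf, hepatocyte growth factor, at 54.4, 56.8, 50.6 and 46.5 in RBPJdel and 82.2, 76.6, 70.9 and 72.9 in control (log2 change -0.54 ± 0.11 SE, adjusted p = 0.0649). Hdac9, a class II histone deacetylase, read 136, 143, 143 and 122 in RBPJdel and 217, 194, 209.96 and 196 in control (log2 change -0.59 ± 0.12 SE, adjusted p = 0.0816). Slc12a2, a sodium, potassium and chloride cotransporter, read 189, 231, 217 and 161 in RBPJdel and 286, 302, 271 and 271 in control (log2 change -0.51 ± 0.10 SE, adjusted p = 0.0986). Actn1, an actin crosslinker, read 719.5, 1089, 973 and 787 in RBPJdel and 1316, 1276, 1434 and 1177 in control (log2 change -0.56 ± 0.12 SE, adjusted p = 0.159). In each of these 4 the RBPJdel arrays were all below the control arrays. On the higher side, Rnf157, a ubiquitin ligase, read 149, 159.95, 146 and 161 in RBPJdel and 94.4, 100.02, 105 and 130.2 in control (log2 change 0.53 ± 0.11 SE, adjusted p = 0.136). Lgals1, the secreted lectin galectin 1, read 2528, 3108, 2904 and 3132 in RBPJdel and 2289, 2115, 2155 and 2167 in control and lay beyond those 20 (log2 change 0.42 ± 0.10 SE, adjusted p = 0.235). Neither overlapped between groups.

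The same deletion was then compared in the active Notch1 background, whose arrays set no group mean of the comparison above but share its estimate of the spread. With the 8 RBPJdel and control arrays alone, 19 of the 22 genes were called. Between 3 N1c_RBPJdel arrays and 4 N1c arrays, 905 genes were called higher (4.58%) and 918 lower (4.65%), 1823 genes in all (9.23%). Of the 22 genes called in RBPJdel against control, 18 (81.8%) were called in the same direction there, 13 of the 15 lower and 5 of the 7 higher. Those 18 are 0.987% of the 1823 genes called with active Notch1. The sorter differs between N1c_RBPJdel and N1c and cannot be told apart from the genotype.

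**Figure D5:**
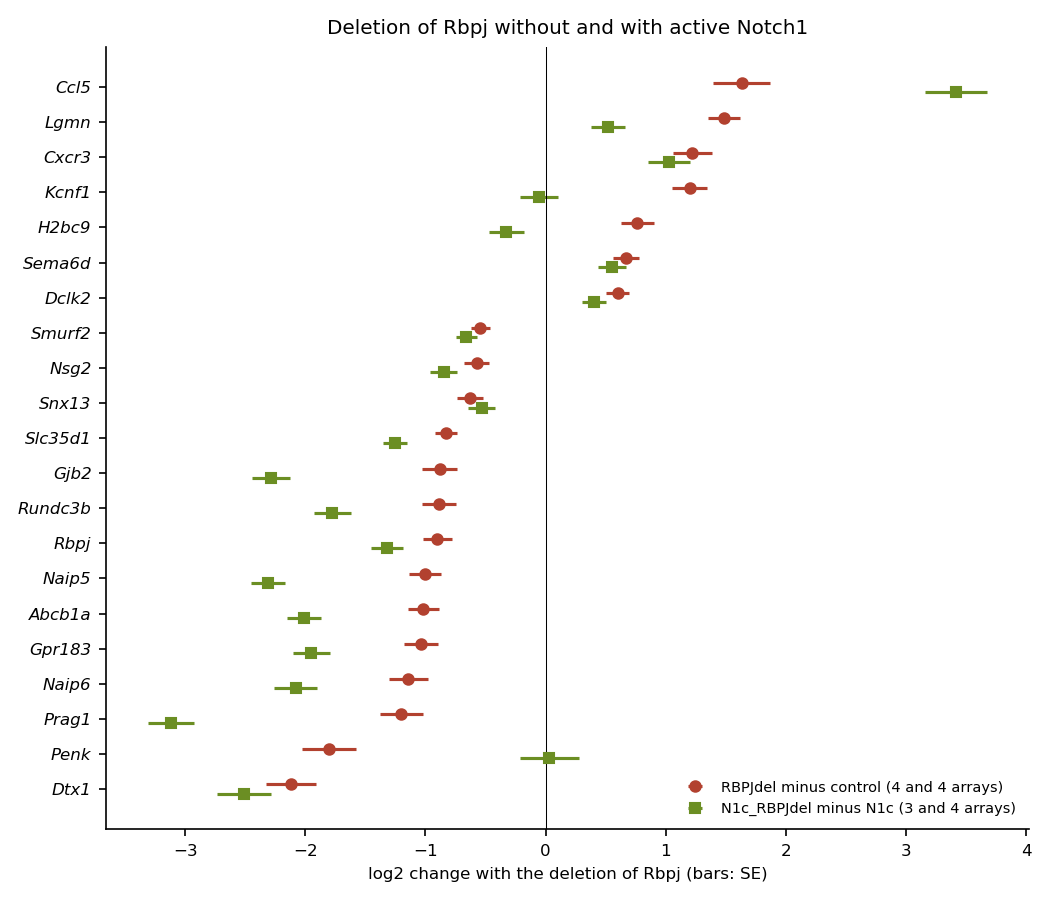
Log2 change with the deletion of Rbpj (horizontal axis, bars are SE) for the 21 named genes, circles for RBPJdel minus control (4 and 4 arrays) and squares for N1c_RBPJdel minus N1c (3 and 4 arrays). Most genes lie on the same side of 0 in both comparisons, while Penk and Kcnf1 lie near 0 and H2bc9 below 0 in the second.

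Of the 15 lower genes, 5 fell further with active Notch1 by the test of the difference between the effects. The median over the 15 change was -1.78 for N1c_RBPJdel against N1c, beside -1.01 for RBPJdel against control. Prag1 read 169, 313 and 153 in N1c_RBPJdel and 2045, 1743, 1678 and 1534 in N1c (log2 change -3.12 ± 0.19 SE, adjusted p = 2.54e-08). Its effects differed by 1.92 ± 0.26 (SE; adjusted p = 0.00129), the effect without active Notch1 minus that with it. Naip5 read 119, 139 and 128 in N1c_RBPJdel and 563, 636, 679 and 679 in N1c (log2 change -2.31 ± 0.14 SE, adjusted p = 2.7e-08), with a difference of 1.31 ± 0.20 (SE; adjusted p = 0.00252). Gjb2, at 115, 132 and 126 in N1c_RBPJdel and 659, 449, 548 and 821 in N1c, Abcb1a and Gpr183 also differed between the backgrounds, by 1.40 ± 0.21 (SE; adjusted p = 0.003), 1.00 ± 0.19 (SE; adjusted p = 0.019) and 0.91 ± 0.21 (SE; adjusted p = 0.0475). Each of these 5 was lower in both backgrounds. Dtx1 read 629.6, 1276 and 630.3 in N1c_RBPJdel and 5277, 5284, 4060.4 and 3742 in N1c (log2 change -2.51 ± 0.23 SE, adjusted p = 2e-06), and its effects were not called different (0.39 ± 0.31 (SE; adjusted p = 0.636)).

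Penk was an exception among the lower genes. It read 474, 554 and 335 in N1c_RBPJdel and 270.4, 365, 551 and 659 in N1c, overlapping and not called (log2 change 0.03 ± 0.24 SE, adjusted p = 0.952), and the difference between the effects was -1.83 ± 0.33 (SE; adjusted p = 0.0107). The higher genes had a median of 0.52 with active Notch1, beside 1.20 without it. Ccl5 read 2322, 3237 and 1963 in N1c_RBPJdel and 166, 317, 246 and 215 in N1c (log2 change 3.42 ± 0.26 SE, adjusted p = 3.03e-07), a larger rise than without active Notch1 (-1.78 ± 0.35 (SE; adjusted p = 0.0204)). Lgmn read 815, 902 and 704 in N1c_RBPJdel and 480.4, 521, 608 and 643 in N1c (log2 change 0.52 ± 0.14 SE, adjusted p = 0.0275), a smaller rise (0.96 ± 0.19 (SE; adjusted p = 0.0204)). Cxcr3 read 1346, 1871 and 1365 in N1c_RBPJdel and 633, 917, 587 and 878 in N1c (log2 change 1.03 ± 0.17 SE, adjusted p = 0.00156), with no called difference (0.19 ± 0.24 (SE; adjusted p = 0.78)). Kcnf1 read 45.9, 55.5 and 66.6 in N1c_RBPJdel and 71.9, 49.3, 59.8 and 51.8 in N1c (log2 change -0.06 ± 0.16 SE, adjusted p = 0.855), and H2bc9 read 886, 920.4 and 831 in N1c_RBPJdel and 1329, 818, 1139 and 1190.1 in N1c (log2 change -0.33 ± 0.15 SE, adjusted p = 0.163), with differences of 1.26 ± 0.21 (SE; adjusted p = 0.00707) and 1.09 ± 0.20 (SE; adjusted p = 0.0117).

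In all, the difference between the 2 effects was called for 10 of the 22 genes, against 0.84% of all genes tested. The 22 were chosen on RBPJdel and control arrays that also enter this difference, so the share is a description. Rbpj itself fell by 1.32 on the log2 scale in N1c_RBPJdel against N1c (175, 258 and 201 in N1c_RBPJdel, 528, 572, 499.98 and 489 in N1c), not called different from the fall without active Notch1 (0.42 ± 0.18 (SE; adjusted p = 0.332)).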

How the data were processed

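The authors deposited microarray intensities on a linear scale. Per the submitters' processing notes they used Affymetrix Power Tools and RMA, with no version named in the sources here, and no filter is stated. The array is the Affymetrix Mouse Gene 1.0 ST, read from TriZol RNA per the labels' protocols. Of 24922 features, 21425 named 1 gene, 1399 several and 2098 none, and 21347 matched the mouse reference table by Entrez ID. For 921 genes with several features the one with the highest mean intensity was kept, which left 19752 genes with no filter on dim ones. Intensities were converted to log2. In limma 3.58.1 under R 4.3.3 all 15 arrays entered 1 fit of the group means (11 residual degrees of freedom, 6.15 prior), with two-sided tests and Benjamini-Hochberg adjustment over all genes, and the fit was tested on simulated data. No pair of arrays was identical.

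Lists, members and tests were chosen with earlier results of these data known. Named genes are Rbpj, Notch1 and Foxp3, the called genes, the 10 in each direction with the next smallest p and no overlap, and up to 3 further members of each list by p. Predicted genes were skipped in naming (1 called). Genes named outside this rule were Hes1, Nrarp, Il2ra and Cd79a for their known roles, and Stat4 and Il10 as list members lower on each RBPJdel array. Fos, Fabp2, Apoa1, Zg16, Anpep, Mki67, Zfp979, Akr1e1 and Rab6b were named after their values were seen.

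Alternatives were the 8 arrays alone, quantile normalization, array weights, an offset of 16, averaged features, genes above the median intensity, an intensity trend, a replicate block and leaving out each array. Added after seeing the data were the pair of RBPJdel 4 and control 5 left out, and the 2 settings on array numbers.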

Additional observations from a re-analysis of the deposited data

Results flagged for a closer look

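The difference between the 2 effects of the deletion (RBPJdel minus control, less N1c_RBPJdel minus N1c, log2 scale) was past the threshold for 10 called genes. It was 0.96 for Lgmn, 1.26 for Kcnf1, 1.00 for Abcb1a, 1.31 for Naip5, 0.91 for Gpr183, 1.92 for Prag1, 1.40 for Gjb2 and 1.09 for H2bc9, and it was -1.83 for Penk and -1.78 for Ccl5. The interaction term of the limma fit tested each one.

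Of 100 named genes looked at in 2 groups, 200 groups of 4 arrays in all, 12 had 1 array far from the other 3, and chance gives about 1 in 20 groups. In RBPJdel these were array 4 for Lgmn (754), Alox8 (242) and Ube2c (98.4), array 3 for Tigit (2099), array 2 for Cpeb4 (409) and array 1 for Maf (650.2). In control they were array 2 for Rbpj (571) and Naip6 (269), array 4 for Tigit (1024), and array 5 for Notch1 (836), Slamf6 (2859) and Cd74 (384). The called genes Rbpj, Lgmn and Naip6 were also called without the array in question.

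One feature of the array that names no gene also passed in a fit over all 24922 features. It read 427, 455, 538 and 564 in RBPJdel and 220.0, 259, 233 and 257 in control, without overlap (log2 change 1.03 ± 0.12 SE, adjusted p = 0.00225).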

How the results depend on the processing

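The counts of 7 higher and 15 lower genes moved with array weights (58 higher, 131 lower), with a replicate block on the 8 arrays alone (19 higher, 26 lower) and with the arrays numbered 1 to 3 alone (1 higher, 4 lower). Leaving out 1 array at a time gave 4 to 9 higher and 11 to 15 lower, with the lowest higher count without RBPJdel 4. The 8 arrays alone, quantile normalization, the offset, averaged features, the intensity filter, the intensity trend and the block on all groups gave 6 to 9 higher and 13 to 17 lower. Rbpj was not called with averaged features (-0.41, adjusted p = 0.32), where a dim second feature enters, or with the arrays numbered 1 to 3 alone (-0.88, adjusted p = 0.118), where fewer arrays remain. No called gene changed sign under any setting run. Notch1, never called, turned below 0 with array weights (-0.070), with the replicate block (-0.017 on all groups, -0.063 on 8 arrays) and with the arrays numbered 1 to 3 alone (-0.039), and ran from -0.072 (without control 5) to 0.19 with arrays left out. Pdcd1, never called, ran from -0.023 (without RBPJdel 4 and control 5) to 0.42 with arrays left out and was -0.13 with the arrays numbered 1 to 3 alone. The cause was not tested. Of the 22 called genes 11 kept the call with each of these settings that tested them and with each array left out, the arrays numbered 1 to 3 alone apart: Lgmn, Dtx1, Slc35d1, Kcnf1, Penk, Abcb1a, Cxcr3, Gpr183, Naip6, Prag1 and Ccl5. Replicate numbers are shared between the groups, and residuals of same-numbered arrays correlated at 0.166, 0.0711 and 0.417, all above 0. Those of differently numbered arrays ran from -0.261 to 0.245, and not every array correlated best with its own number. The main fit did not pair the arrays, and these values do not settle whether the numbers pair them. With the replicate block on the 8 arrays alone Naip5 (adjusted p = 0.0991), Smurf2 (0.0674), Dclk2 (0.0796) and Nsg2 (0.167) were not called, and with the block on all groups H2bc9 and Nsg2 were not (0.0739 each). Over the settings added for N1c_RBPJdel against N1c, 16 to 19 of the 22 genes were called there in the same direction, and 8 to 12 differed between the effects. The number of arrays and the dim end of the intensity scale limit what can be seen.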

Other observations

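The arrays numbered 4 and 5 shared other transcripts. Besides Fabp2, the gut genes Apoa1 (an apolipoprotein), Zg16 (a goblet cell lectin) and Anpep (a brush border peptidase) were high there, all chosen after their values were seen. Zg16 read 43.5, 46.3, 48.5 and 130.2 in RBPJdel and 36.4, 62.5, 625 and 359.6 in control. Apoa1 read 120.1, 132, 132 and 235 in RBPJdel and 138, 159, 1127 and 514 in control, and Anpep read 53.8, 69.3, 47.02 and 119 in RBPJdel and 50.8, 63.5, 784 and 236 in control. Mki67, a marker of dividing cells, read 441, 545, 515 and 137 in RBPJdel and 271, 255, 119 and 158 in control, low on RBPJdel 4, control 4 and control 5. In N1c arrays 1, 2, 4 and 5 Zg16 read 36.99, 39.5, 188 and 161, so that the same numbers stood apart in a group outside the comparison.

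A second set of arrays was marked by Zfp979, a zinc finger gene, also seen only after its values. Zfp979 read 10.3, 9.66, 10.5 and 9.53 in RBPJdel and 223, 8.82, 166 and 319 in control, so that control 3 lay with RBPJdel. It read 160.005, 161 and 232 in N1c_RBPJdel and 241, 10.7, 165 and 212 in N1c, where N1c 2 was low as well. Akr1e1, an aldo-keto reductase, had the opposite order on the same arrays, with 96.02, 78.3, 126 and 104 in RBPJdel and 26.6, 131, 25.4 and 37.9 in control, and Rab6b, a small GTPase, read 271, 527, 506 and 541 in RBPJdel and 161, 473, 146 and 141 in control. Only Zfp979 separated RBPJdel 1 to 4, control 3 and N1c 2 from the other 9 arrays by at least 1 log2 unit. For all 22 called genes control 3 lay with the other control arrays. That follows from the lack of overlap in those genes, so it does not show whether this split touched the calls. Zfp979 itself was not called (log2 change -3.34 ± 0.95 SE, adjusted p = 0.448). The cause was not tested.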
